A study of Sus scrofa with 16 samples.

Results

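Genes of gluconeogenesis and glycogen metabolism were followed in the liver of pigs fed 3 different fats. The 8 genes were PCK1, PCK2, FBP1, PC, GPD1, GYS2, PYGL and PPARGC1A, taken by their annotated pig symbol, and each matched 1 of the 25880 gene identifiers counted in every pig. The pigs were crosses of (Polish Landrace x Polish Large White) with (Duroc x Pietrain) pigs, and they were fattened from 60 to 118 kg on feeds of similar energy and protein content. Group R received rapeseed oil (n = 5, of which 3 gilts, 2 barrows), group B beef tallow (n = 5, of which 2 gilts, 3 barrows) and group C coconut oil (n = 6, of which 3 gilts, 3 barrows). No group received feed without added fat, so each comparison sets 1 fat against another. Each pig gave 1 liver library that reads mRNA near its 3′ end (QuantSeq), deposited as whole-number read counts per gene.

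The liver makes glucose from lactate, amino acids and glycerol by gluconeogenesis and stores it as glycogen. PC and the PEP carboxykinases PCK1 (cytosolic) and PCK2 (mitochondrial) carry carbon from pyruvate to phosphoenolpyruvate, FBP1 acts further up the path to glucose, and glucose 6-phosphatase releases free glucose at the end. GYS2 builds liver glycogen, PYGL breaks it down, and PPARGC1A is a coactivator that switches on gluconeogenic genes in fasting, together with hormones such as glucagon.

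Levels are normalized counts (CPM, with library sizes scaled by the TMM method), and because each mRNA is read at its 3′ end, they are not divided by gene length. A pig had 705669 to 1767671 reads on genes (median 1018321.5). Log2 fold changes and Benjamini-Hochberg adjusted p-values come from the quasi-likelihood test of edgeR, in which a positive value is higher in the second diet named, and a gene is called at an adjusted p below 0.05. Each sample was bulk liver, so fewer cells of a type and less RNA per cell cannot be told apart. ALB, the main plasma protein made by hepatocytes, was at 27364 to 152249 CPM per pig, while of the adipocyte markers LEP had 0 reads in every pig and 5 matched markers summed to 3.08 to 16.7 CPM. Beef tallow pig 3 stood apart from the other 15 pigs on the first principal component of all genes (59.0, against -19.6 to 17.6, for a component with 19.3% of the variance). It had the lowest summed level of the 10 hepatocyte markers (89953 CPM, range over pigs 89953 to 229823) and the highest summed level of the 9 macrophage markers (1703 CPM, range 652 to 1703). Such sums are weighted towards the most abundant markers. In this pig ALB alone held 27364 of the 89953 CPM, and SERPINA1 of the same list had 0 to 3 reads in every pig. Fold changes without this pig are also given for PCK1, PPARGC1A and UGP2.

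None of the 7 tested genes was called in any comparison of diets. PC did not pass the filter on low counts and is given separately. Over all genes tested, the share called was 1.11% for R vs. B, 0.138% for R vs. C and 0.0587% for B vs. C, and 0.711% in the test for any difference among the 3 diets. At an unadjusted p below 0.05, FBP1 and PPARGC1A were higher in group B than in group R (2 of 7 genes, against 15.0% of all genes tested), and for R vs. C the same 2 genes were higher with coconut oil (2 of 7, against 13.0%). In B vs. C this was 0 of 7 genes, against 11.5%. The CPM ranges of the diets overlapped for all 7 genes in every pair, while ranges that did not overlap were found for 4.57% of all genes tested in R vs. B, 1.46% in R vs. C and 1.45% in B vs. C. The smallest adjusted p among the 7 genes was 0.181 in R vs. B, 0.269 in R vs. C and 0.645 in B vs. C (edgeR). R vs. B and R vs. C share the pigs of group R, so they are not independent of each other.

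**Figure D1:**
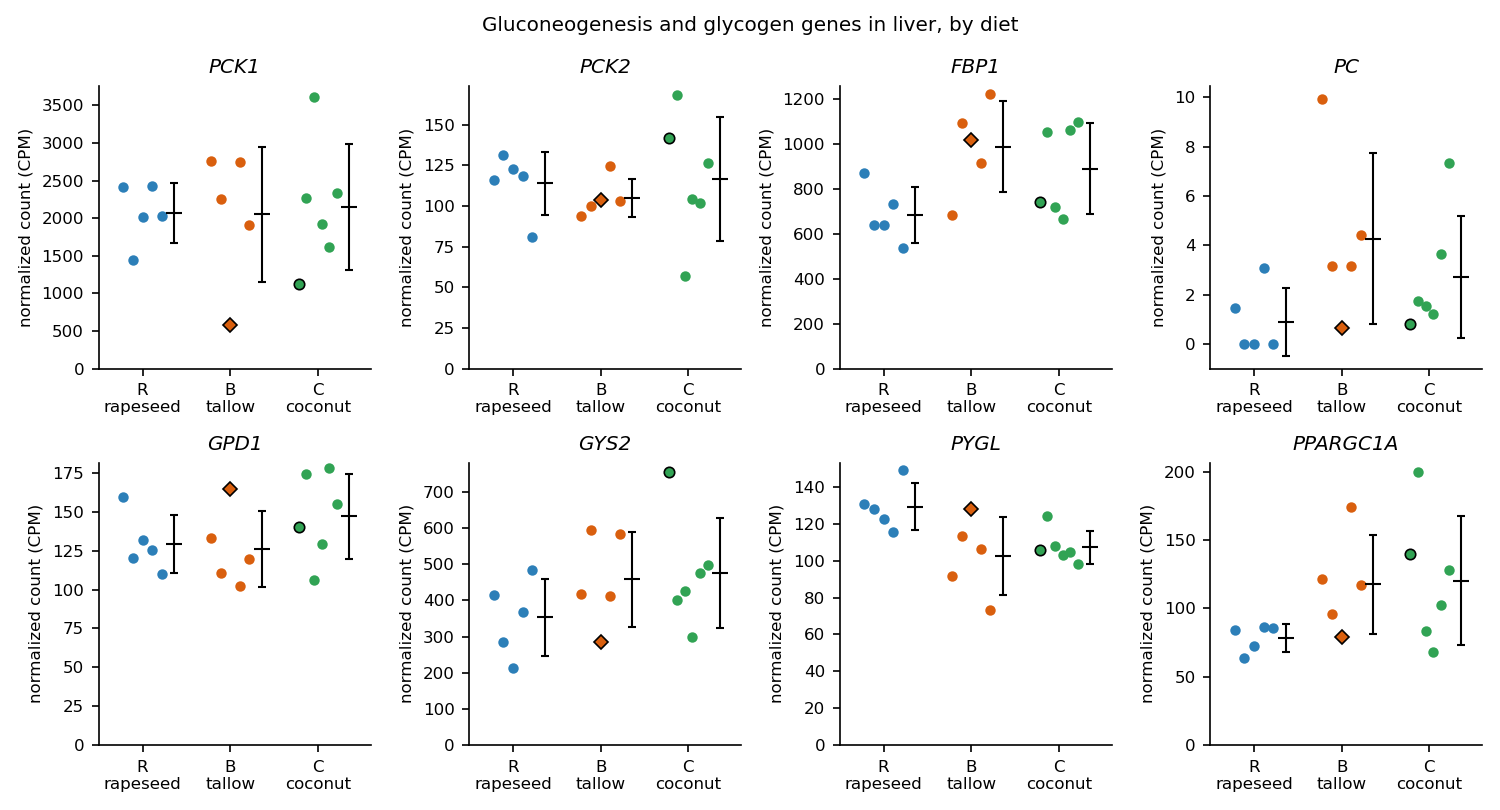
Normalized counts (CPM) of the 8 genes in each pig, with 1 point per pig and the mean ± SD of each diet beside the points (n = 5, 5 and 6). The black-edged diamond is beef tallow pig 3 and the black-edged circle coconut oil pig 1. The diets overlap for every gene, PCK1 spans 576 to 3606 CPM, and PC stays at or below 9.93 CPM.

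PC, pyruvate carboxylase, makes oxaloacetate from pyruvate and so opens the path. PC (ENSSSCG00000012926, chromosome 2 from 5566608 to 5587797) had 53 reads in all 16 pigs together. It had 2, 0, 0, 3 and 0 reads in rapeseed oil pigs 1 to 5, and 13, 3, 1, 3 and 4 reads in beef tallow pigs 1 to 5. In group C it had 1 to 13 reads per pig. The 3 pigs without a read were all in group R, but with 5 reads in that group and 24 in each of the others, a single pig with 13 reads held over 50% of the reads of its group. Without the filter on low counts the log2 fold change was 2.02 for R vs. B (standard error 0.78, edgeR adjusted p = 0.262), 1.56 for R vs. C (0.77, adjusted p = 0.512) and -0.44 for B vs. C (0.59, adjusted p = 0.788). Whether the annotated 3′ end of PC is the one used in pig liver was not tested.

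PCK1 (ENSSSCG00000007507, chromosome 17 from 57930507 to 57936523), which makes phosphoenolpyruvate in the cytosol, had nearly the same mean in each diet and a wide spread between pigs. Its normalized count was 2418, 1446, 2009, 2431 and 2022 CPM in rapeseed oil pigs 1 to 5. In beef tallow pigs 1 to 5 it was 2760.0, 2261, 576, 2744 and 1910.2 CPM. In the coconut oil pigs the lowest value was 1121, the median 2099 and the highest 3606 CPM. Beef tallow pig 3 was the lowest of all 16 pigs, coconut oil pig 3 the highest, and the rapeseed oil pigs lay inside the range of both other groups. The means were 2065 ± 402 CPM with rapeseed oil (SD, n = 5), 2050.3 ± 898 with beef tallow (n = 5) and 2148 ± 844 with coconut oil (n = 6). The log2 fold change of PCK1 was -0.01 for R vs. B (standard error 0.31, 95% interval -0.67 to 0.64, edgeR adjusted p = 0.995). It was 0.05 for R vs. C (95% interval -0.43 to 0.54, adjusted p = 0.955) and 0.07 for B vs. C (-0.63 to 0.78, adjusted p = 0.954). These intervals leave room for differences of over 0.5 on the log2 scale in either direction in R vs. B and B vs. C. Without beef tallow pig 3 the value for R vs. B was 0.23 (adjusted p = 0.544) and that for B vs. C was -0.17.

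PCK1 varied widely between pigs of the same diet. Its SD within diets was 0.65 on the log2 CPM scale, above 94.2% of the 1285 genes with a mean of at least 100 CPM, whose median was 0.30. The pig with the highest level had 6.26 times the level of the lowest. GYS2 (0.44) and PPARGC1A (0.43) also lay above 80% of those genes in this spread, with 82.3% and 80.4% of the genes below them. PCK2 (0.37) and FBP1 (0.31) lay closer to the middle. PYGL (0.20, above 12.5% of the genes) and GPD1 (0.25, above 31.2%) varied least among the 7 genes.

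The gene whose log2 CPM followed PCK1 most closely over the 16 pigs, out of 6891 genes, was ALB (Pearson's r = 0.92, Spearman's rho = 0.85), followed by TBK1, a kinase of innate immune signalling (r = 0.91, rho = 0.81). The points share their library and its scaling, and these genes were chosen for their likeness, so the coefficients are a description. ALB was at 27364 CPM in beef tallow pig 3 and at 61651 CPM in coconut oil pig 1, the 2 pigs with the least PCK1. Without these 2 pigs, r of PCK1 and ALB was 0.73 and rho 0.78 (n = 14). The part of tissue composition in this relation was not tested.

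**Figure D2:**
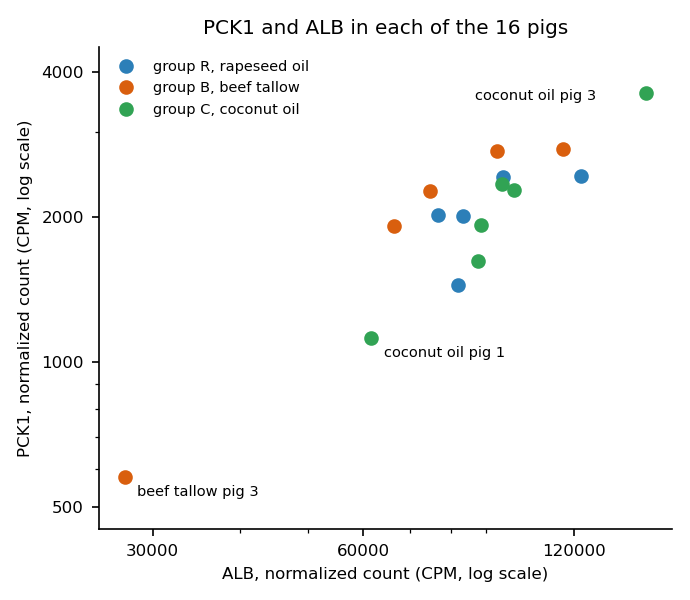
Normalized counts (CPM) of PCK1 against ALB, both on log axes, with 1 point per pig coloured by diet. Beef tallow pig 3 sits alone at the lower left with 576 CPM of PCK1 and 27364 CPM of ALB, coconut oil pig 1 is next, and coconut oil pig 3 has the most of both.

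PCK2 (ENSSSCG00000002009, chromosome 7 from 75187195 to 75197613), the mitochondrial form, was at 114 ± 19.5 CPM with rapeseed oil, 105 ± 11.5 with beef tallow and 117 ± 38.2 with coconut oil (SD, n = 5, 5 and 6). The rapeseed oil pigs 1 to 5 had 116, 131, 123, 118 and 80.6 CPM, and the beef tallow pigs 1 to 5 had 94.0, 99.7, 104, 124 and 103 CPM. In group C the values ran from 57.1 through a median of 115 to 168 CPM, which is wider than the range of both other groups. Coconut oil pig 3, which had the most PCK1, had the least PCK2. The log2 fold change of PCK2 was -0.12 for R vs. B (standard error 0.17, edgeR adjusted p = 0.800), 0.04 for R vs. C (0.21, adjusted p = 0.957) and 0.16 for B vs. C (0.21, adjusted p = 0.803). The most similar pattern over the 16 pigs was that of EHD4, a membrane-trafficking protein (r = 0.83, rho = 0.54).

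FBP1 (ENSSSCG00000031174, chromosome 10 from 27588609 to 27622225) encodes fructose 1,6-bisphosphatase, which counters phosphofructokinase, the committed step of glycolysis. Its normalized count was 869, 639, 637, 730.4 and 536 CPM in rapeseed oil pigs 1 to 5. In beef tallow pigs 1 to 5 it was 684, 1092, 1017, 915 and 1222 CPM. In the coconut oil pigs the lowest value was 663, the median 896 and the highest 1098 CPM. Of the beef tallow pigs, 4 were above every rapeseed oil pig, and beef tallow pig 1 lay among them. Coconut oil pigs fell in both ranges, 3 of them above every rapeseed oil pig. The means were 682 ± 125 CPM with rapeseed oil (SD, n = 5), 986 ± 203 with beef tallow (n = 5) and 889 ± 201 with coconut oil (n = 6). For FBP1 the log2 fold change was 0.53 for R vs. B (standard error 0.19, 95% interval 0.13 to 0.93, unadjusted p = 0.0125, edgeR adjusted p = 0.181). It was 0.38 for R vs. C (0.18, 0.01 to 0.75, unadjusted p = 0.0464, adjusted p = 0.377) and -0.14 for B vs. C (0.19, -0.54 to 0.25, adjusted p = 0.803). Neither difference from group R passed the threshold after adjustment, and across 17 alternatives for R vs. B the value stayed between 0.44 and 0.64 with adjusted p-values of 0.108 or more. AASS, which begins lysine breakdown, followed FBP1 most closely over the 16 pigs (r = 0.83, rho = 0.84).

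GPD1 (ENSSSCG00000000214, chromosome 5 from 16008179 to 16021676), the cytosolic glycerol 3-phosphate dehydrogenase, links glycerol to the triose phosphates. It was at 129 ± 18.7 CPM with rapeseed oil, 126 ± 24.6 with beef tallow and 147 ± 27.5 with coconut oil (SD, n = 5, 5 and 6). The ranges of the 3 diets lay almost on top of each other, from 110.1 to 159.6, from 102 to 165 and from 106 to 178 CPM. The log2 fold change of GPD1 was -0.04 for R vs. B (95% interval -0.42 to 0.34, edgeR adjusted p = 0.954), 0.19 for R vs. C (-0.16 to 0.53, adjusted p = 0.697) and 0.23 for B vs. C (-0.15 to 0.61, adjusted p = 0.645). ATP5PF, a subunit of mitochondrial ATP synthase, had the most similar pattern over the pigs (r = 0.82, rho = 0.86).

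PPARGC1A (ENSSSCG00000029275, chromosome 8 from 17841844 to 18527953), the coactivator of gluconeogenic genes, had 83.9, 63.6, 72.4, 86.5 and 85.6 CPM in rapeseed oil pigs 1 to 5. The beef tallow pigs 1 to 5 had 121, 95.5, 78.8, 174 and 117 CPM. In the coconut oil pigs the lowest value was 67.8, the median 115 and the highest 199.8 CPM. The rapeseed oil pigs were low and close together, and among the beef tallow pigs only pig 3 fell within their range. Coconut oil pigs 3 and 4 also lay within it, and the other 4 were above. The means were 78.4 ± 10.03 CPM with rapeseed oil (SD, n = 5), 117 ± 36.1 with beef tallow (n = 5) and 120.2 ± 47.4 with coconut oil (n = 6). PPARGC1A had a log2 fold change of 0.58 for R vs. B (standard error 0.21, 95% interval 0.13 to 1.02, unadjusted p = 0.0150, edgeR adjusted p = 0.196). It was 0.62 for R vs. C (0.23, 0.14 to 1.10, unadjusted p = 0.0137, adjusted p = 0.269) and 0.05 for B vs. C (0.26, -0.50 to 0.59, adjusted p = 0.960). Without beef tallow pig 3 the value for R vs. B was 0.69 with an adjusted p of 0.0644, the smallest of all alternatives. In the test for any difference among the 3 diets, the adjusted p was 0.263 for FBP1 and 0.283 for PPARGC1A (edgeR). The pattern most like that of PPARGC1A was the one of MIX23 (r = 0.82, rho = 0.89).

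**Figure D3:**
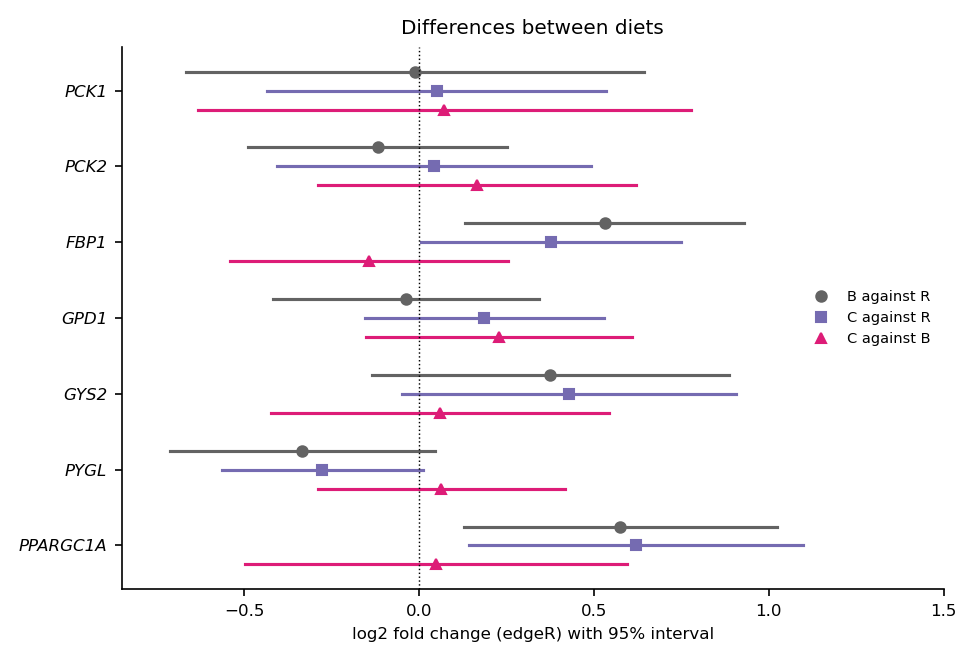
Log2 fold changes of the 7 tested genes (points) with their 95% intervals from edgeR (lines), for group B against group R, group C against group R and group C against group B. The intervals of FBP1 and PPARGC1A lie above 0 in both comparisons with group R before adjustment, and all other intervals include 0.

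GYS2 (ENSSSCG00000000577, chromosome 5 from 51862952 to 51915153), the liver glycogen synthase, was at 415, 285, 213, 368 and 484 CPM in rapeseed oil pigs 1 to 5. It was at 419, 596, 285, 411 and 585 CPM in beef tallow pigs 1 to 5, and in group C the lowest value was 300.1, the median 451 and the highest 755 CPM. The highest values were those of coconut oil pig 1 and of beef tallow pigs 2 and 5, and the ranges overlapped over most of their width. The means were 353 ± 106, 459 ± 131 and 476 ± 153 CPM (SD, n = 5, 5 and 6). For GYS2 the log2 fold change was 0.38 for R vs. B (standard error 0.24, edgeR adjusted p = 0.486), 0.43 for R vs. C (0.23, adjusted p = 0.446) and 0.06 for B vs. C (0.23, adjusted p = 0.940). KMT2C, a histone methyltransferase, had the most similar pattern (r = 0.85, rho = 0.86).

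PYGL (ENSSSCG00000005024, chromosome 1 from 180645849 to 180704124), the liver glycogen phosphorylase, had 131, 128, 123, 115 and 149 CPM in rapeseed oil pigs 1 to 5. It had 91.7, 114, 128, 106 and 73.0 CPM in beef tallow pigs 1 to 5, and in group C the lowest value was 98.0, the median 105 and the highest 124 CPM. Of the beef tallow pigs only pig 3 reached the rapeseed oil range, and of the coconut oil pigs only pig 2. The means were 129 ± 12.7, 102 ± 21.1 and 107 ± 9.07 CPM (SD, n = 5, 5 and 6). PYGL had a log2 fold change of -0.33 for R vs. B (standard error 0.18, 95% interval -0.71 to 0.05, edgeR adjusted p = 0.391). It was -0.28 for R vs. C (0.14, -0.56 to 0.01, adjusted p = 0.404) and 0.06 for B vs. C (0.17, -0.29 to 0.42, adjusted p = 0.913). CARHSP1, an RNA-binding protein, followed PYGL most closely over the 16 pigs (r = 0.89, rho = 0.79).

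Since GYS2 and PYGL act in opposite directions, the ratio of their reads within a pig was also computed, without a test. It was 3.17, 2.22, 1.74, 3.19 and 3.24 in rapeseed oil pigs 1 to 5. In beef tallow pigs 1 to 5 the ratio was 4.57, 5.25, 2.23, 3.87 and 8.02, and in group C it ran from 2.92 through a median of 4.25 to 7.12. All beef tallow pigs but pig 3, and 4 of the 6 coconut oil pigs, lay above every rapeseed oil pig.

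Of the 21 pairs among the 7 genes, 0 were correlated over the 16 pigs after adjustment. The largest Pearson's r was that of GYS2 and PPARGC1A (r = 0.53, permutation p = 0.0331, adjusted p = 0.346, Spearman's rho = 0.56, permutation p = 0.0276, adjusted p = 0.290). With each diet centred on its mean, r was 0.40 (permutation p = 0.150), and without the 2 pigs farthest from the median, rapeseed oil pig 3 and coconut oil pig 1, it was 0.42 (permutation p = 0.129). FBP1 and PPARGC1A gave r = 0.49 (permutation p = 0.0537, adjusted p = 0.346) and 0.27 within diets. They had the largest Spearman's rho of the 21 pairs (0.57, permutation p = 0.0230, adjusted p = 0.290).

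Gilts and barrows did not differ past the threshold in any of the 7 genes, where 0.0871% of all genes tested were called. The largest difference was that of PPARGC1A, with a mean of 94.95 CPM in gilts and 118 CPM in barrows (n = 8 each, log2 fold change 0.23, standard error 0.20, edgeR adjusted p = 0.947, with diet in the model). The interaction of diet and sex had an adjusted p of 0.997 or more for each of the 7 genes in every pair of diets (edgeR).

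The surrounding pathway was described with 4 lists of genes, for glucose production (34 identifiers), glucose uptake and glycolysis (39), glycogen synthesis and breakdown (25), and hormone signalling and transcription factors of glucose production (46), with the members included in them. Of the genes tested in these lists, 0 were called by edgeR in any pair of diets, while DESeq2 called 3 of 84 in R vs. B (TRIB3 and UGP2 among them, against 3.08% of all genes to which it gave an adjusted p), 0 of 61 in R vs. C (against 2.64%) and 0 of 60 in B vs. C (against 1.33%). In R vs. B, 4 of 26 tested genes of glucose production had an unadjusted p below 0.05, all higher in group B, with a list median of -0.04 on the log2 scale. For uptake and glycolysis this was 3 higher and 1 lower of 18, for glycogen 1 higher and 3 lower of 10, and for signalling and transcription 7 higher and 1 lower of 31. The list medians were 0.08, -0.37 and 0.30, beside a median of 0.01 over all genes tested, of which 526 were higher and 421 lower at that p. In R vs. C, the counts were 1 higher and 1 lower of 25 for glucose production, 0 and 3 of 19 for uptake and glycolysis, 0 and 1 of 10 for glycogen, and 3 and 2 of 32 for signalling and transcription. The medians were 0.11, -0.03, -0.24 and 0.07, beside -0.0011 over all genes tested, of which 421 were higher and 426 lower. In B vs. C the counts in the same order were 0 and 1 of 26, 0 and 2 of 19, 1 and 1 of 10, and 0 and 2 of 33, with medians of -0.04, -0.02, 0.03 and -0.12, beside -0.0045 over all genes tested, of which 357 were higher and 423 lower.

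**Figure D4:**
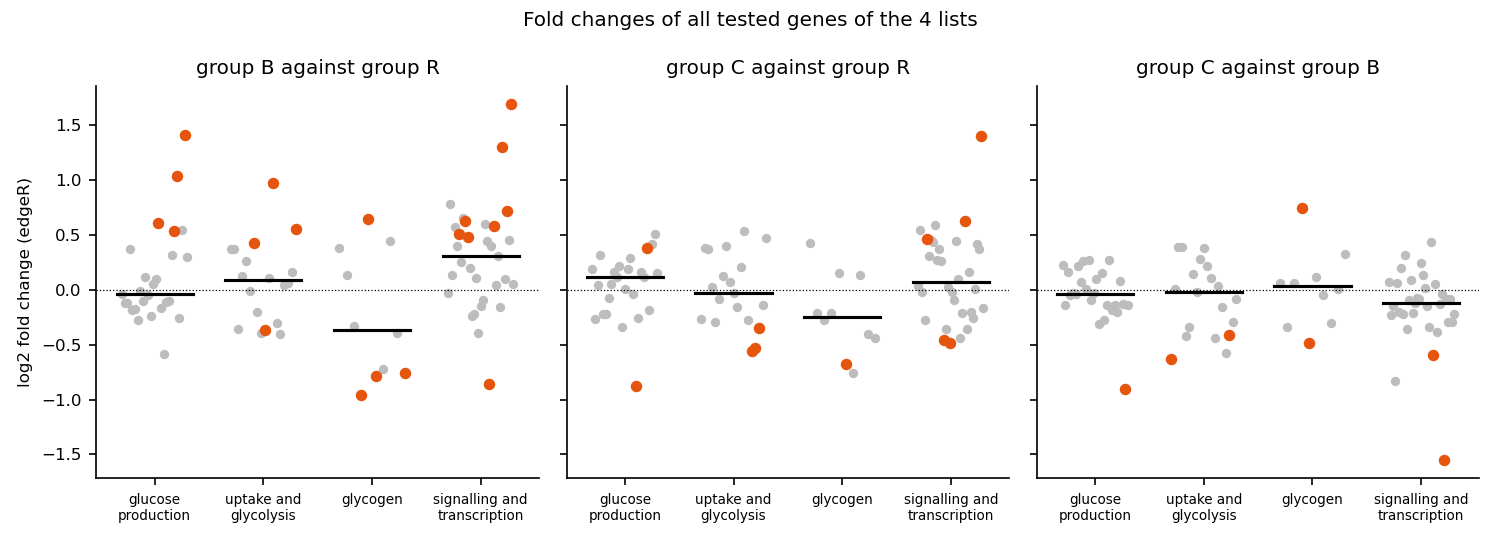
Log2 fold changes (edgeR) of every tested gene of the 4 lists, with 1 panel per pair of diets, orange points for an unadjusted p below 0.05 and black lines at the list medians. In the panel of group B against group R the signalling and transcription list lies mostly above 0 (median 0.30) and the glycogen list mostly below it (median -0.37).

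At the end of glucose production, G6PC1, the catalytic subunit of glucose 6-phosphatase in liver, was at 1012 ± 531 CPM with rapeseed oil, 1478 ± 497 with beef tallow and 1349.9 ± 194 with coconut oil (SD, n = 5, 5 and 6). It had 1048, 976, 534, 1877 and 627 CPM in rapeseed oil pigs 1 to 5, 2105, 1148, 884, 1416 and 1836 CPM in beef tallow pigs 1 to 5, and from 1112 through a median of 1378 to 1593 CPM in the coconut oil pigs. Rapeseed oil pig 4 was far above the other pigs of its diet. The log2 fold change of G6PC1 was 0.55 for R vs. B (standard error 0.31, edgeR adjusted p = 0.421), 0.41 for R vs. C (0.25, adjusted p = 0.505) and -0.13 for B vs. C (0.21, adjusted p = 0.846). Without rapeseed oil pig 4 it was 0.89 for R vs. B (adjusted p = 0.134) and 0.76 for R vs. C (adjusted p = 0.136), and over all alternatives it was at least 0.38 and 0.25. SLC37A4, which carries glucose 6-phosphate to that enzyme, was at 213 ± 61.1, 322 ± 54.05 and 259 ± 39.0 CPM, with a log2 fold change of 0.60 for R vs. B (0.21, adjusted p = 0.181). SDS, serine dehydratase, which turns serine into pyruvate, varied widely, with 38.0 times as much in its highest as in its lowest pig. It had 66.2, 325, 207, 487 and 19.7 CPM in rapeseed oil pigs 1 to 5 and 406, 448, 736, 748 and 588 CPM in beef tallow pigs 1 to 5. In the coconut oil pigs it ran from 132 through a median of 258 to 565 CPM. Of the rapeseed oil pigs only pig 4 reached the beef tallow range. The log2 fold change of SDS was 1.41 for R vs. B (standard error 0.53, edgeR adjusted p = 0.214) and -0.91 for B vs. C (0.34, adjusted p = 0.343). When genes with low counts were kept in the fit (15123 genes), SDS passed in R vs. B (edgeR adjusted p = 0.00186). Its log2 fold change there was again 1.41, and the standard error was smaller (0.30 against 0.53), so this call rests on the smaller standard error alone. SDS itself had 20 to 1121 reads per pig. Its SD within diets was 1.19 on the log2 CPM scale, above 99.5% of the 1285 genes with a mean of at least 100 CPM. LDHB, a subunit of lactate dehydrogenase, was at 7.41 ± 4.41 CPM in group R and 15.9 ± 3.68 in group B (1.04, standard error 0.36, adjusted p = 0.174). LDHB had only 3 to 19 reads per pig in group R and 13 to 34 in group B, and it passed the filter on low counts mainly through group B.

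Among the genes of uptake and glycolysis, SLC2A2, the glucose transporter of hepatocytes, had 369, 353, 344, 338 and 410.1 CPM in rapeseed oil pigs 1 to 5 and 297, 341, 249, 287 and 234 CPM in beef tallow pigs 1 to 5. Only beef tallow pig 2 reached the rapeseed oil range. Its log2 fold change for R vs. B was -0.37 (standard error 0.16, unadjusted p = 0.0336, edgeR adjusted p = 0.285). TIGAR, which lowers fructose 2,6-bisphosphate, was at 9.37 ± 1.51 CPM in group R and 18.5 ± 2.85 in group B, without overlap (0.97, standard error 0.26, adjusted p = 0.0837). It had only 7 to 11 reads per pig in group R and 15 to 25 in group B. TIGAR passed the filter on low counts mainly through group B, so its fold change and lack of overlap are no separate support for a difference. Groups R and B did not overlap for 1 of the 18 tested genes of this list, against 4.57% of all genes tested. PDK4, a kinase that shuts down pyruvate dehydrogenase, was at 331 ± 19.8 CPM with rapeseed oil, 443 ± 121 with beef tallow and 437 ± 140 with coconut oil, with log2 fold changes of 0.42 for R vs. B (standard error 0.18, adjusted p = 0.295) and 0.40 for R vs. C (0.19, adjusted p = 0.392).

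In the glycogen list, UGP2, which makes the UDP-glucose that glycogen synthase uses, had 878, 1049, 961, 982 and 984 CPM in rapeseed oil pigs 1 to 5 and 1648, 1434, 1257, 1994 and 1253 CPM in beef tallow pigs 1 to 5. Every beef tallow pig was above every rapeseed oil pig. Groups R and B did not overlap for 2 of the 10 tested genes of this list, against 4.57% of all genes tested. In the lists of glucose production and of signalling and transcription this was 0 of 26 and 0 of 31. In the coconut oil pigs UGP2 ran from 717 through a median of 1082 to 1415 CPM. Its log2 fold change for R vs. B was 0.64 (standard error 0.17, 95% interval 0.29 to 1.00, edgeR adjusted p = 0.0777), just short of the threshold. UGP2 passed with DESeq2 (adjusted p = 0.00564) and without beef tallow pig 3 (edgeR adjusted p = 0.0308). In B vs. C its log2 fold change was -0.49 (standard error 0.20, adjusted p = 0.374). PPP1R3B, which directs a phosphatase to glycogen, was at 52.8 ± 19.4 CPM in group R and 31.4 ± 16.7 in group B (-0.76, standard error 0.32, adjusted p = 0.275).

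In the signalling and transcription list TRIB3, an inhibitor of the insulin-signalling kinase AKT, had 6.62, 9.23, 11.6, 6.18 and 4.92 CPM in rapeseed oil pigs 1 to 5 and 27.5, 8.49, 27.6, 13.8 and 45.3 CPM in beef tallow pigs 1 to 5. Only beef tallow pig 2 lay within the rapeseed oil range. In the coconut oil pigs it ran from 6.47 to 37.2 CPM (median 14), with pigs 5 and 6 at 33.6 and 37.2 CPM and the other 4 pigs at or below 15.7 CPM. The log2 fold change of TRIB3 was 1.69 for R vs. B (standard error 0.41, edgeR adjusted p = 0.0599) and 1.40 for R vs. C (0.45, adjusted p = 0.198), the latter 0.89 to 1.59 over its alternatives, among which it could not be fitted without coconut oil pig 2, 5 or 6, since it then did not pass the filter on low counts. TRIB3 passed in R vs. B with DESeq2 (adjusted p = 0.0136) and with genes of low counts kept (edgeR adjusted p = 0.00308, standard error 0.37). It also passed without beef tallow pig 2 (edgeR adjusted p = 0.0354). TRIB3 had only 5 to 9 reads per pig in group R and 8 to 42 in group B. It passed the filter on low counts mainly through group B, so these calls are no separate support for a difference. SIK1, a kinase that restrains CREB-driven gluconeogenic transcription, was at 18.7 ± 8.58 CPM with rapeseed oil, 46.1 ± 32.7 with beef tallow and 15.6 ± 4.91 with coconut oil. It had 55.8, 32.9, 24.3, 98.8 and 18.8 CPM in beef tallow pigs 1 to 5, with pigs 3 and 5 inside the rapeseed oil range (5.90 to 29.9 CPM). Its log2 fold change was 1.30 for R vs. B (standard error 0.43, edgeR adjusted p = 0.153) and -1.55 for B vs. C (0.38, adjusted p = 0.208). With genes of low counts kept both passed (edgeR adjusted p = 0.0106 and 0.0146). The log2 fold changes were then 1.29 and -1.53, with a smaller standard error of 0.31 in each, so these 2 calls rest on the smaller standard errors. NR0B2, a nuclear receptor that represses gluconeogenic and bile acid genes, was at 59.7 ± 39.9 CPM in group B and 33.3 ± 15.3 in group C (-0.84, standard error 0.40, adjusted p = 0.440). PRKACA, the catalytic subunit of protein kinase A that glucagon activates, was at 154 ± 25.7 CPM in group R and 112 ± 22.5 in group C (-0.46, standard error 0.17, adjusted p = 0.265). GRB14, an inhibitor of the insulin receptor, was at 61.0 ± 13.7 and 44.3 ± 6.97 CPM in the same 2 groups (-0.48, standard error 0.17, adjusted p = 0.261).

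**Figure D5:**
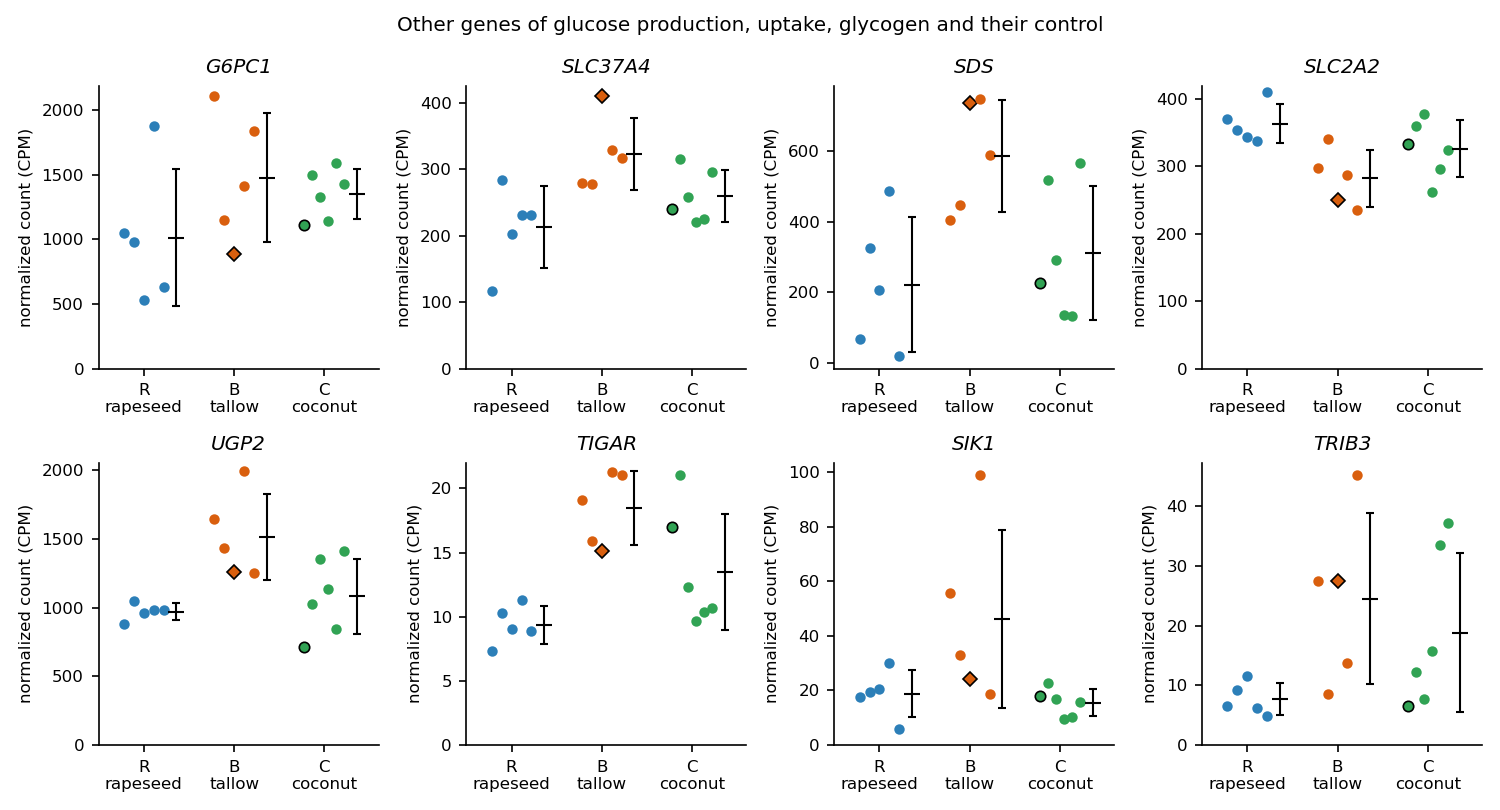
Normalized counts (CPM) of 8 other genes of the pathway in each pig, with 1 point per pig and the mean ± SD of each diet beside the points (n = 5, 5 and 6), and with the black-edged diamond for beef tallow pig 3 and the black-edged circle for coconut oil pig 1. UGP2 and TIGAR do not overlap between group R and group B, which held for 4.57% of all genes tested. TIGAR had only 7 to 11 reads per pig in group R. SDS ranges from 19.7 to 748 CPM.

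Markers of other cell types were set beside these values. The summed level of the 9 macrophage markers was 690.3 to 1239 CPM with rapeseed oil (median 1079), 1012 to 1703 with beef tallow (median 1087) and 652 to 1003 with coconut oil (median 762). Groups B and C thus did not overlap, but only by the small gap between 1003 and 1012 CPM. Among single genes, the CPM ranges of B and C did not overlap for 1.45% of all genes tested. Of the 8 macrophage markers tested, only CD163 was called in R vs. B (110.4 ± 18.4 CPM in group R and 190.3 ± 22.7 in group B, log2 fold change 0.79, edgeR adjusted p = 0.0414). It was also the only 1 with an unadjusted p below 0.05 there, against 15.0% of all genes tested. In B vs. C 6 of the 8 had such a p, all lower in group C, against 11.5% of all genes tested (423 of 6812 lower). The list includes CLEC4G, which may not mark macrophages, and the cell type of each marker in pig liver was not tested. The summed level of the 5 matched endothelial markers was 195 to 279 CPM with rapeseed oil, 204 to 284 with beef tallow and 208 to 271 with coconut oil. Among them LYVE1, a marker of sinusoidal endothelium, was called in R vs. B (33.2 ± 6.13 CPM in group R and 61.1 ± 11.5 in group B, log2 fold change 0.88, adjusted p = 0.0495), while the median of the 5 was -0.31.

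Hepatocytes near the portal vein are known for more gluconeogenesis than those near the central vein. The summed level of the 9 matched periportal markers, which include PCK1 and SDS, had a median of 11888 CPM in group R (10757 to 15296), 16031 in group B (12809 to 16497) and 14491 in group C (10436 to 16564). Without PCK1 and SDS the medians were 9673 CPM in group R (8973 to 12812), 12919.9 in group B (11166 to 13998) and 12161 in group C (8375 to 14229.5). Of the 8 periportal markers tested in R vs. B, 3 were higher in group B at an unadjusted p below 0.05, SDS among them, and 0 were lower. Over all 6318 genes tested, 526 were higher and 421 lower at that p. The list median was 0.27 on the log2 scale, with PCK1 at -0.01. CDH1 of the same list had 392 to 582 CPM in group R and 55.8 to 507 in group B. Only HAL, the first enzyme of histidine breakdown, was called (63.9 ± 31.2 CPM in group R and 169 ± 42.9 in group B, log2 fold change 1.39, edgeR adjusted p = 0.0305). The summed level of the 9 matched pericentral markers had a median of 2551 CPM in group R (1877 to 3258), 2132 in group B (1725 to 2501) and 2336 in group C (1639 to 2778), and 0 of the 5 tested in R vs. B had an unadjusted p below 0.05. Of the 9 hepatocyte markers tested in R vs. B, 1 was higher and 1 lower in group B at an unadjusted p below 0.05, with a list median of -0.10. The lower one, TTR, a plasma carrier protein, was called (6523 ± 949 CPM in group R and 3791 ± 621 in group B, log2 fold change -0.78, edgeR adjusted p = 0.0426). The part of cell types and zones in the differences between diets was not tested.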

How the data were processed

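Liver RNA of 16 pigs on 3 diets was sequenced with a 3′ mRNA method (QuantSeq). The authors used FastQC, FLEXBAR for trimming, TopHat for mapping to Sscrofa11.1 and HTSeq-count with an Ensembl annotation. The deposited values are raw counts per gene, with 5 tallies of reads assigned to no gene that were left out of library sizes and tests. Per pig, 42.8% to 55.1% of reads fell on genes, and 15.4% to 38.1% aligned to several places and were given to no gene, which leaves genes with close copies uncertain. No 2 of the 120 pairs of libraries were identical.

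Groups were taken from the sample labels, 1 library per animal. Of the identifiers, 14857 have a symbol. Positions are those of RefSeq on the same assembly, matched by symbol. Each pair of diets was fitted alone, with its own pigs, by the quasi-likelihood test of edgeR 4.0.16 (R 4.3.3), without covariates, after TMM normalization and filterByExpr (minimum count 10, minimum total 15). Adjustment was by Benjamini-Hochberg over all genes tested, with a threshold of 0.05. The standard error is the log2 fold change divided by the square root of F. Correlations used log2 CPM with a prior count of 2 and two-sided permutation tests (100000 resamples). The fits were tested on simulated data.

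The members and lists were chosen with earlier results of these data known. The genes named are the 8 members, the 4 genes with the smallest unadjusted p of each list in each pair of diets (those described are a part of them) and the 2 genes with the highest r with each member (the first is described for each). G6PC1, ALB and the marker genes were named outside this rule, CD163, CLEC4G, LYVE1, HAL, CDH1 and TTR after their values were seen. Alternatives were DESeq2 1.42.0 (the authors' tool), RLE normalization, no filter, a floor of 10 reads per pig, a joint fit of the 16 pigs, a term for sex, a replicate block, and leaving out each pig in turn. Some genes of the lists are not reported here on their own but stayed in the fits and counts. No sequences were analysed here.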

Additional observations from a re-analysis of the deposited data

Results flagged for a closer look

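In 117 groups of pigs (39 genes in 3 diets), 2 had a pig that lay far from the others of its diet by Dixon's criterion, and chance gives about 1 in 20. Beef tallow pig 3 had the highest LDHB of its group (22.3 CPM, the other 4 pigs 13.0 to 14.9) and the highest GAPDH (604 CPM, the others 277 to 351). None of the 8 members had such a pig.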

How the results depend on the processing

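The members called remained 0 of those tested under every alternative run in every pair of diets. The direction was kept under every alternative by FBP1 in all 3 pairs, by GYS2, PYGL and PPARGC1A in both pairs with group R, by GPD1 in R vs. C and B vs. C, and by PCK2 in R vs. B and B vs. C. With each pig left out in turn, the log2 fold change of PCK1 ran from -0.14 to 0.23 for R vs. B, from -0.15 to 0.18 for R vs. C and from -0.17 to 0.20 for B vs. C. That of GPD1 for R vs. B ran from -0.156 to 0.0527, that of PCK2 for R vs. C from -0.0831 to 0.176, and for B vs. C those of GYS2 from -0.12 to 0.17, PYGL from -0.0377 to 0.159, PPARGC1A from -0.15 to 0.23 and G6PC1 from -0.267 to 0.0351. With sex as a covariate GPD1 was 0.00883 for R vs. B. Without the 2 farthest pigs, r turned to 0.000751 for PCK1 and FBP1, -0.0626 for PCK2 and PYGL, 0.0300 for FBP1 and PYGL, and -0.12 for GPD1 and PPARGC1A. The cause was not tested.

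Over all genes, the calls for R vs. B, R vs. C, B vs. C and any diet (70, 9, 4 and 49) were 186, 90, 46 and 233 with DESeq2 and 190, 82, 22 and 190 with no filter. With at least 10 reads in every pig R vs. C gave 14, and with all 16 pigs in 1 fit B vs. C gave 8. Leaving out each pig in turn gave 9 to 149, 3 to 27, 4 to 9 and 15 to 96 calls, the most without beef tallow pig 3 for R vs. B and any diet, coconut oil pig 3 for R vs. C and beef tallow pig 2 for B vs. C. Pigs with the same number showed no strong shared deviation (correlations of -0.25 to 0.14, and 0.00025 to 0.11 in R vs. C). The pig of the same number was the closest match for pigs 1, 2 and 3 in R vs. C, and only for pig 4 in R vs. B and in B vs. C. Such correlations cannot show whether the numbers pair the pigs, and the labels do not say so. With the replicate block, R vs. B gave 35 calls and any diet 26, and the values were -0.0577 for PCK1 and -0.0273 for PCK2 in R vs. C and -0.0236 for PPARGC1A in B vs. C.

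PC had 53 reads in all, so its values rest on few reads, and the intervals of the members were about 0.3 to 0.7 wide on each side on the log2 scale.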
